A study of Rattus norvegicus with 64 samples.

Results

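Glucocorticoid-responsive genes were followed in the whole blood of single rats, as a set of 10 genes whose transcripts are known to respond to adrenal stress hormone or to carry its signal: Fkbp5, Tsc22d3, Klf9, Zbtb16, Sgk1, Ddit4, Dusp1, Il1r2, Anxa1 and Nr3c1. They were found by gene symbol, ignoring case, in the first column of every count file. The 10 symbols matched 11 of the 26405 gene entries listed in any file, because Nr3c1 has an entry under each of 2 identifiers, ENSRNOG00000014096 and ENSRNOG00000048800. All 11 entries were listed for all 64 rats. The values are RNA-seq expected counts, and levels are given as CPM, the count relative to the library total after that total was scaled by the trimmed mean of M-values (TMM).

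All animals were adult male Sprague-Dawley rats, 85 to 90 days old, that received 4 injections spaced 2 h apart and were bled by cardiac puncture 3 h after the last one. Saline was given at 22.5 C (saline 22.5 C, 6 rats), at 16 C (saline 16 C, 5 rats) or at 39 C (environmentally induced hyperthermia, EIH, 16 rats), and amphetamine (AMPH) was given at 22.5 C, where the rats were labelled hyperthermic (22 rats), or at 16 C, where they were labelled normothermic (15 rats). AMPH rats whose body temperature passed a set limit were cooled on ice. Globin RNA was depleted before sequencing. Rats with more than 5000 counts of the cardiac muscle transcript Mb were left out, which left 4, 5, 15, 22 and 13 rats in that order, 59 in all. Each rat entered with a single library, so the errors below are between animals. The paper states that RNA of its last control group was sequenced again, because of a poor reagent in the initial library preparation. The saline 22.5 C rats match that group in size and in the number left out for Mb. The labels do not say which of these sequencing runs gave their counts. Any effect of this on the comparisons with saline 22.5 C rats was not tested. No corticosterone measurement was used here, and the question put to the data was how far these transcripts differed with drug and room temperature.

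Glucocorticoids diffuse into cells and bind the glucocorticoid receptor, encoded by Nr3c1, which is held in the cytoplasm by Hsp90 and its co-chaperones. The bound receptor moves to the nucleus and raises or lowers transcription, in part through a palindromic DNA element and in part through other transcription factors. In blood, glucocorticoids are known to release neutrophils from marrow, to lower circulating lymphocytes and to dampen cytokine synthesis. Fkbp5 encodes an Hsp90 co-chaperone that lowers the hormone affinity of the receptor and is widely used as a readout of its activity. Tsc22d3 (GILZ), Klf9 and Zbtb16 encode transcriptional regulators, Sgk1 a kinase, Ddit4 an inhibitor of mTOR signalling and Dusp1 a phosphatase that switches off MAP kinases. Il1r2 encodes a decoy receptor for interleukin-1 and Anxa1 the anti-inflammatory protein annexin A1, and both are abundant in neutrophils.

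The bases before the transcription start of the 4 members that fell together between the 2 AMPH groups are shown here, because the hormone acts at such regions. They are RefSeq promoter windows on assembly GRCr8, cut to the 150 bases before the start and written 5′ to 3′ on the strand of the gene. Capitals mark TGACG or its reverse complement CGTCA, a cAMP-response half-site. For Tsc22d3, 1 of its 3 listed starts is shown, the one with a match.
Dusp1, chr10:17184703-17184852, plus strand: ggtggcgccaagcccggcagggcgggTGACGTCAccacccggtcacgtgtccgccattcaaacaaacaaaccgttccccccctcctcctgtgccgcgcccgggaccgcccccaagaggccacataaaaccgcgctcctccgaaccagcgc
Tsc22d3, chrX:109010035-109010184, minus strand: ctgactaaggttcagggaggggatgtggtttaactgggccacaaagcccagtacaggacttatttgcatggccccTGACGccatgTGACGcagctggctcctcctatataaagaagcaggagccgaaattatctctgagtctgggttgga
Fkbp5, chr20:6543556-6543705, minus strand: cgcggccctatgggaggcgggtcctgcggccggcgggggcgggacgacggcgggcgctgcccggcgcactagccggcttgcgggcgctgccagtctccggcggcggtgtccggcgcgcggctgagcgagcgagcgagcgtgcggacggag
Anxa1, chr1:227303733-227303882, minus strand: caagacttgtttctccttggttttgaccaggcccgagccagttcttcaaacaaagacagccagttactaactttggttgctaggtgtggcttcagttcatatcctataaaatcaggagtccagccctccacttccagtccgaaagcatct

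Promoter windows were found for 8 of the 10 symbols (13 windows), and both strands of the 250 bases before each start were searched. The glucocorticoid response half-site AGAACA (reverse complement TGTTCT) was in 0 of the 13 member windows and in 17.5% of all 33469 windows. TGACG was in 3 of the 13, those of Dusp1, Klf9 and 1 start of Tsc22d3, and in 18.2% of all windows. The full palindrome TGACGTCA, which contains TGACG, was in 1 of the 13, that of Dusp1, at position -124 from its start, and in 1.59% of all windows. These are matches of letters in short windows and say nothing about binding here. Bases farther from the start were not searched.

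Library totals ran from 19055615 to 40530319 counts (median 27542432). Member counts per rat were 10 or more in every kept rat for all entries except Zbtb16, with 0 to 49 counts, and Nr3c1 ENSRNOG00000048800, with 1 to 514. Zbtb16 was at 0 in 1 of 15 EIH rats and in 3 of 22 AMPH 22.5 C rats, where 3 counts would be 0.053 to 0.283 CPM. The TMM factor was under 0.7 in 6 of the 15 EIH rats and 2 of the 22 AMPH 22.5 C rats, and in none of the other kept rats. Hemoglobin transcripts took 2.78% to 33.3% of the counts in EIH rats, 2.99% to 27% in AMPH 22.5 C rats and 4.69% to 15.1% in AMPH 16 C rats. Libraries carried 14 project codes, which the labels do not describe and which were taken here as batches. The 5 saline 16 C rats shared 1 code with 1 rat of each other group except saline 22.5 C, and the saline 22.5 C rats shared codes only with AMPH 22.5 C rats. AMPH 22.5 C replicate 21 correlated least with its group (median r = 0.87, log2 values), and replicate 17 of that group had the lowest Dusp1, Il1r2 and Anxa1 of its 22 rats. Whole blood is a mixture, so fewer cells of a type and less RNA per cell cannot be told apart.

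Of the 11 entries, 6 had their highest group mean in AMPH 16 C rats, and 1, Nr3c1 ENSRNOG00000014096, had its lowest mean there. Fkbp5 averaged 45.6 ± 18.7 CPM in AMPH 16 C rats (SD, n = 13), 35.7 ± 17.6 in saline 22.5 C (n = 4), 30.2 ± 7.75 in AMPH 22.5 C (n = 22), 28.8 ± 11.3 in EIH (n = 15) and 25.2 ± 3.75 in saline 16 C (n = 5). Each neighbouring pair in that order lay closer than the larger of their SDs. Tsc22d3 averaged 406 ± 75.0 CPM in AMPH 16 C, 301 ± 79.7 in saline 16 C, 248 ± 57.8 in AMPH 22.5 C, 246 ± 89.0 in saline 22.5 C and 188 ± 68.0 in EIH rats. The step from AMPH 16 C to saline 16 C exceeded the larger SD, and the other 3 steps did not. Klf9 ran the other way at the top, from 4.35 ± 0.710 CPM in saline 22.5 C down to 2.41 ± 0.982 in AMPH 22.5 C rats, and Ddit4 lay within 16.0 to 21.2 CPM in all 5 groups, less than the SD of 7.98 in saline 22.5 C.

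Dusp1 averaged 755 ± 236 CPM in AMPH 16 C, 478 ± 190 in EIH, 461 ± 96.2 in saline 16 C, 349 ± 143 in AMPH 22.5 C and 248 ± 240 in saline 22.5 C rats. Here again the step down from AMPH 16 C exceeded the larger SD and the others did not. Il1r2 spanned the widest range of group means among the members, 7.62 fold, from 154 ± 171 CPM in saline 22.5 C to 1175 ± 559 in AMPH 16 C, with 483 ± 332 in EIH, 696 ± 230 in saline 16 C and 897 ± 487 in AMPH 22.5 C. Anxa1 averaged 1420.4 ± 430 CPM in AMPH 16 C, 1340.1 ± 539 in saline 16 C, 867 ± 463 in AMPH 22.5 C, 435 ± 228 in EIH and 354 ± 347 in saline 22.5 C. Neighbouring means of Il1r2 and of Anxa1 lay within the larger SD throughout. Sgk1 was highest in EIH (34.4 ± 10.9 CPM) and lowest in saline 22.5 C (22.9 ± 4.47), and the receptor entry Nr3c1 ENSRNOG00000014096 ran from 52.9 ± 19.2 in EIH to 37.8 ± 8.43 in AMPH 16 C. Nr3c1 ENSRNOG00000048800 was at 6.57 ± 3.39 CPM in EIH and 3.15 ± 0.930 in saline 16 C. The 2 Nr3c1 entries may share reads, so how their counts were split is uncertain.

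**Figure D1:**
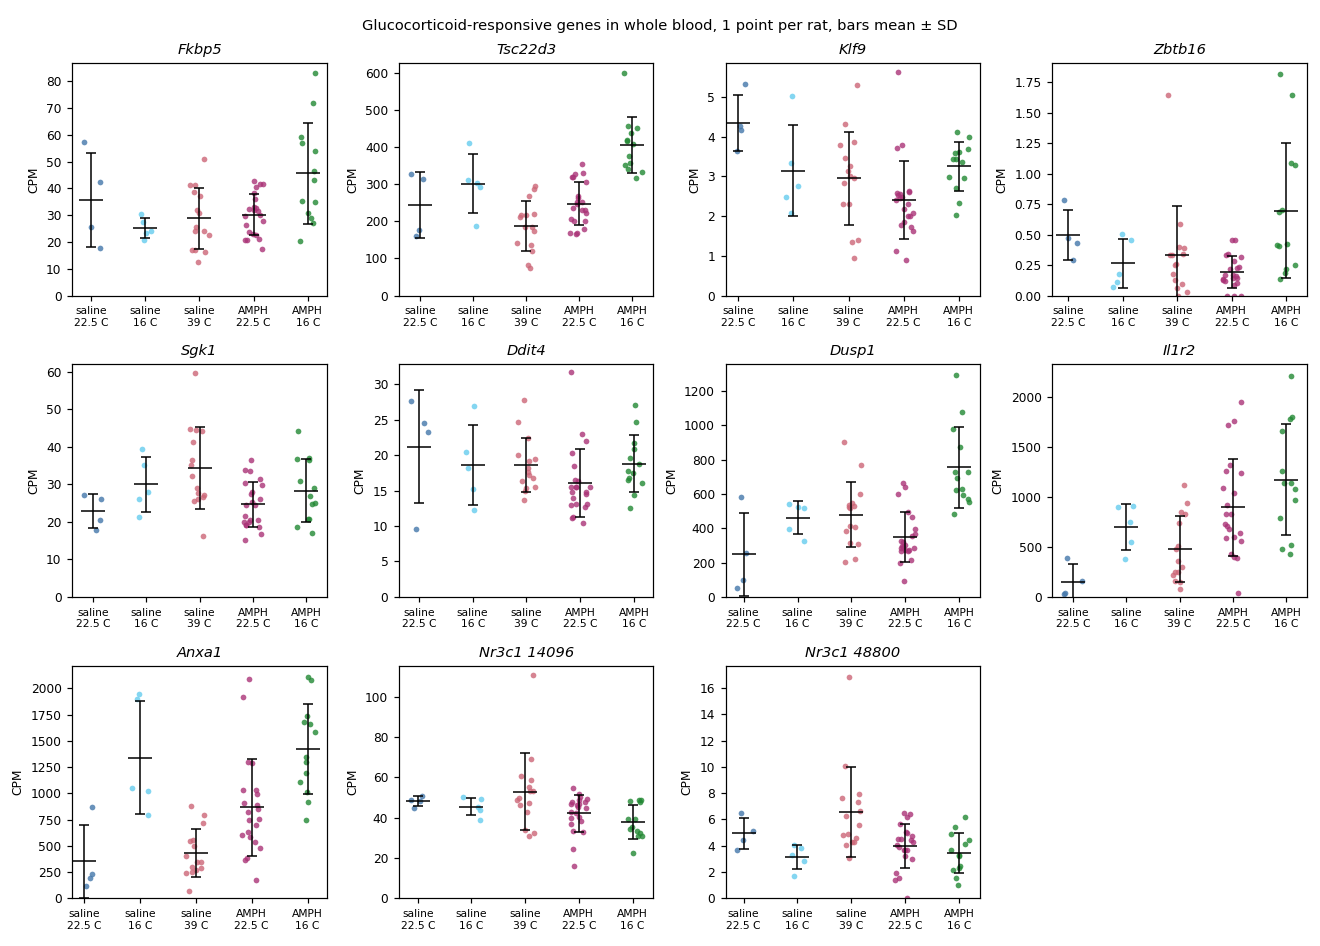
Level of each glucocorticoid-responsive gene in CPM (y axis, linear) in the 5 groups (x axis), with 1 point per rat and bars for the mean ± SD, on axes that start at 0. Dusp1 and Tsc22d3 are highest in the AMPH 16 C rats, the 4 saline 22.5 C rats spread widely for Dusp1, Il1r2 and Anxa1, and the number after Nr3c1 is the end of its identifier.

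The comparison between the 2 AMPH groups asked what differed with room temperature when the drug was the same. It used 10 AMPH 22.5 C and 9 AMPH 16 C rats of 5 project codes that held both groups, with the project as a term. The groups were also labelled hyperthermic and normothermic, so room temperature, body temperature and any cooling on ice cannot be told apart here. A gene was called changed at a Benjamini-Hochberg adjusted p under 0.05 over all genes tested (edgeR quasi-likelihood test) and an absolute log2 fold change over 0.58. Under this rule 4 of the 10 entries tested were lower in AMPH 22.5 C rats and none was higher, while 4.79% of the 12091 genes tested were lower and 10.1% changed in either direction. The median log2 fold change was -0.50 over the 10 entries and 0.01 over all genes.

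Dusp1, the MAP kinase phosphatase, had 216 to 601 CPM in the AMPH 22.5 C rats (median 303) and 555 to 1077.6 CPM in the AMPH 16 C rats (median 727). All but 1 of the 10 AMPH 22.5 C rats lay below every AMPH 16 C rat. Its log2 fold change was -1.13 ± 0.21 (SE, adjusted p = 0.002). Tsc22d3, which encodes GILZ, ran from 169 to 327 CPM (median 241) in AMPH 22.5 C and from 318 to 458 CPM (median 376) in AMPH 16 C rats. The groups overlapped in few rats, with 8 of the 10 below all of the 9. Tsc22d3 fell by 0.65 ± 0.14 on the log2 scale (SE, adjusted p = 0.005).

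Anxa1 ran from 387 to 1028.9 CPM (median 697) in AMPH 22.5 C and from 914 to 2080.2 CPM (median 1349) in AMPH 16 C rats, with 8 of the 10 below all of the 9. Its log2 fold change was -0.95 ± 0.21 (adjusted p = 0.0065). Fkbp5 overlapped more, at 17.2 to 41.6 CPM (median 31.9) against 20.3 to 83.3 CPM (median 46.6). Only 1 AMPH 22.5 C rat lay below the other group, while 6 of the 9 AMPH 16 C rats lay above all AMPH 22.5 C rats. The log2 fold change of Fkbp5 was -0.69 ± 0.22 (adjusted p = 0.04). No member had groups without overlap, which 1.26% of the genes tested had.

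Of the members that did not pass, Il1r2 had a log2 fold change of -0.63 (adjusted p = 0.16), Klf9 of -0.36 (adjusted p = 0.087), Ddit4 of -0.26 (adjusted p = 0.21) and Sgk1 of -0.20 (adjusted p = 0.45). The receptor entries Nr3c1 stood at 0.13 and 0.15 (adjusted p = 0.42 and 0.73). Zbtb16 was not tested, since fewer than 9 of the 19 rats had 10 counts. Without the filter on low counts it had a log2 fold change of -1.93 (adjusted p = 0.0066), at 0.0841 to 0.459 CPM in AMPH 22.5 C and 0.187 to 1.81 CPM in AMPH 16 C rats.

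Within single projects, Dusp1, Tsc22d3, Anxa1, Fkbp5, Klf9 and Zbtb16 had a lower mean in the AMPH 22.5 C rats in 5 of 5 projects. The within-project differences of mean log2(CPM + 1) ran from -2.17 to -0.84 for Dusp1, from -0.79 to -0.53 for Tsc22d3, from -1.82 to -0.62 for Anxa1 and from -1.33 to -0.23 for Fkbp5. Il1r2 was lower in 4 of 5, from -2.18 to 0.20. A project held 1 to 4 AMPH 22.5 C and 1 to 3 AMPH 16 C rats, so these are values and not tests. The Fkbp5 call was lost with all rats kept whatever their Mb counts (adjusted p = 0.057) and in 1 fit over all 5 groups (adjusted p = 0.15), where Anxa1 (adjusted p = 0.08) also missed the threshold and Tsc22d3 (log2 fold change -0.53) the fold limit.

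**Figure D2:**
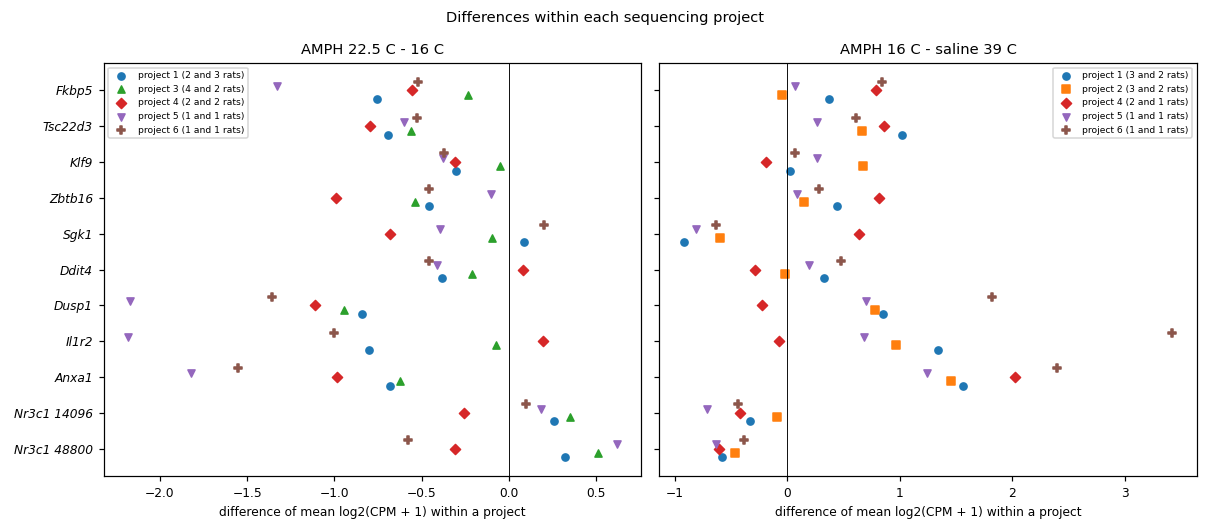
Difference of mean log2(CPM + 1) within each project code (x axis) for each member (y axis), for AMPH 22.5 C minus AMPH 16 C rats (left) and AMPH 16 C minus EIH rats (right). The key gives 1 symbol per project and the number of rats of each group. On the left all 5 projects lie below 0 for Dusp1, Tsc22d3, Anxa1 and Fkbp5, and on the right all 5 lie above 0 for Anxa1, Tsc22d3 and Zbtb16.

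Of 18 tested entries for the receptor complex, coregulators and steroid handling, 9 were higher in AMPH 22.5 C rats and none lower, and 5.30% of all genes tested were higher. The 3 with the smallest adjusted p were the chaperone gene Hsp90aa1 (log2 fold change 4.57), the co-chaperone gene Stip1 (3.03, both adjusted p = 2.9e-06) and Hspa8 (1.93, adjusted p = 1.3e-05). These encode heat-shock proteins as well as partners of the unbound receptor. Of 20 other glucocorticoid-induced genes, 1 rose (the chemokine receptor gene Cxcr4, 0.72, adjusted p = 0.0069) and 1 fell (the repressor gene Bcl6, -0.74, adjusted p = 0.014), with a median log2 fold change of -0.18. Of 11 cytokine and inflammatory genes known to be repressed by glucocorticoids, 2 rose, Il1a (3.51, adjusted p = 0.00057) and Cxcl2 (2.58, adjusted p = 0.0097), with a median of -0.00.

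Markers of blood cell types also differed between these 19 rats. The summed level of the 11 neutrophil markers was 7394 to 14925 CPM (median 11701) in AMPH 22.5 C and 11024 to 25772 CPM (median 15988) in AMPH 16 C rats, with 1 of 10 tested markers called, Cxcr2 (-0.67, adjusted p = 0.014), and a list median of -0.55. Of 7 monocyte markers 3 were higher in AMPH 22.5 C rats (Cd68, 0.73, adjusted p = 0.0068; Csf1r, 0.58, adjusted p = 0.011; Cd14, 0.76, adjusted p = 0.047). The summed level of all 7 was 427 to 643 CPM (median 485) in AMPH 22.5 C and 367 to 591 CPM (median 519) in AMPH 16 C rats. Of 7 reticulocyte markers 3 were lower, led by Hba-a2 (-1.49, adjusted p = 0.011), Hba2 (-1.42, adjusted p = 0.018) and Slc4a1 (-0.74, adjusted p = 0.045). Their list summed to 26525 to 173401 CPM (median 55502) in AMPH 22.5 C and 66454 to 193492 CPM (median 113014) in AMPH 16 C rats. Of 5 platelet markers 1 was higher, Ppbp (1.54, adjusted p = 0.00049), and of 8 immediate early genes 3, Egr1 (1.45, adjusted p = 0.00017), Fosb (0.91, adjusted p = 0.02) and Jun (1.13, adjusted p = 0.025). None of 8 T-cell, 5 B-cell or 4 tested cardiac markers was called. The part of cell composition in the lower Dusp1, Tsc22d3, Anxa1 and Fkbp5 was not tested.

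AMPH and heat were set side by side in 10 AMPH 16 C and 7 EIH rats of 5 shared projects. Of the 11 entries, Anxa1 and Tsc22d3 were higher in AMPH 16 C rats and none was lower, against 4.42% of 12096 genes higher and 5.56% lower, 9.99% in all. The median over the members was 0.37 and over all genes -0.01. Anxa1 had 745 to 2108.3 CPM (median 1466) in AMPH 16 C rats and 301 to 879 CPM (median 407) in EIH rats, with 9 of the 10 above all 7 EIH rats. Its log2 fold change was 1.71 ± 0.24 (SE, adjusted p = 0.00036). Tsc22d3 did not overlap at all, at 334 to 601 CPM (median 392) and 184 to 296 CPM (median 218), as was so for 1.73% of the genes tested. Tsc22d3 differed by 0.76 ± 0.15 (adjusted p = 0.0044).

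Il1r2 (1.18, adjusted p = 0.069), Dusp1 (0.77, adjusted p = 0.069) and Zbtb16 (1.15, adjusted p = 0.14) were above 0 and Sgk1 (-0.57, adjusted p = 0.079), Nr3c1 ENSRNOG00000014096 (-0.36, adjusted p = 0.067) and ENSRNOG00000048800 (-0.64, adjusted p = 0.15) below 0 without passing. Both Nr3c1 entries had a lower mean in AMPH 16 C rats in 5 of 5 projects. Fkbp5 stood at 0.37 (adjusted p = 0.33), Klf9 at 0.26 (adjusted p = 0.48) and Ddit4 at 0.15 (adjusted p = 0.6). With rats of TMM factor under 0.7 left out, a project code left without EIH rats was dropped as well, which left 8 and 5 rats. In that fit 5 members were called: Anxa1 (1.76), Tsc22d3 (0.77), Il1r2 (1.77) and Dusp1 (1.11) higher and Sgk1 (-0.72) lower. Over the whole table it called 1265 genes, against 1208 in the main fit. With all rats and no project term 6 members were called, and 2370 genes over the whole table.

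In the same rats 10 of 18 receptor complex entries were lower in AMPH 16 C rats, led by Stip1 (-3.10, adjusted p = 2.4e-05), Hsp90aa1 (-4.88, adjusted p = 5.9e-05) and the co-chaperone gene Fkbp4 (-2.70, adjusted p = 7.6e-05). Of 20 other glucocorticoid-induced genes 2 were lower, Cxcr4 (-1.02, adjusted p = 0.004) and the metabolic kinase gene Pdk4 (-2.34, adjusted p = 0.021). Of 10 inflammatory genes 1 was lower, Ptgs2 (-1.02, adjusted p = 0.034), and of 8 immediate early genes 2, Egr1 (-1.74, adjusted p = 0.00015) and Jun (-1.73, adjusted p = 0.013). Neutrophil markers summed to 8868 to 25772 CPM in AMPH 16 C and 4765 to 12000 CPM in EIH rats, with S100a8 (1.49, adjusted p = 0.0046) and S100a9 (1.08, adjusted p = 0.032) higher and Ngp (-1.02, adjusted p = 0.0058) lower. Of 7 monocyte markers 3 were lower (Csf1r, Cx3cr1 and Cd68, from -1.09 to -0.82), as was the B-cell marker Cd22 (-0.64, adjusted p = 0.036), and no T-cell, reticulocyte, platelet or cardiac marker was called. Whether the higher Anxa1, whose product is abundant in neutrophils, followed these markers was not tested.

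AMPH 22.5 C rats, the other hyperthermic group, were compared with EIH rats in 10 and 13 rats of 7 shared projects. None of the 10 entries tested passed, and 0.133% of 12055 genes did. An unadjusted p under 0.05 was reached by 1596 genes, where a share of 0.05 of those tested would reach it with no difference. Sgk1 had 15.0 to 30.3 CPM (median 20.4) in AMPH 22.5 C and 16.2 to 59.7 CPM (median 28.9) in EIH rats, and a log2 fold change of -0.65 ± 0.18 (adjusted p = 0.16), with a lower mean in 7 of 7 projects. Anxa1 stood at 0.89 ± 0.34 (adjusted p = 0.27) and Il1r2 at 0.88 ± 0.41 (adjusted p = 0.36), each with a higher mean in 6 of 7 projects. Fkbp5 (0.08 ± 0.22, adjusted p = 0.88) and Ddit4 (-0.00 ± 0.17, adjusted p = 0.99) had the smallest estimates. Nr3c1 ENSRNOG00000048800 (-0.92 ± 0.32, adjusted p = 0.22), ENSRNOG00000014096 (-0.32 ± 0.18, adjusted p = 0.44) and Klf9 (-0.53 ± 0.26, adjusted p = 0.39) also had a lower mean in 7 of 7 projects, while Tsc22d3 stood at 0.37 ± 0.17 (adjusted p = 0.36) and Dusp1 at -0.43 ± 0.26 (adjusted p = 0.47). Zbtb16 was not tested. DESeq2 called 201 genes and 1 member, Sgk1 (-0.67), and with TMM factors under 0.7 left out 0 genes of the whole table were called. No list gene was called in this comparison.

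**Figure D3:**
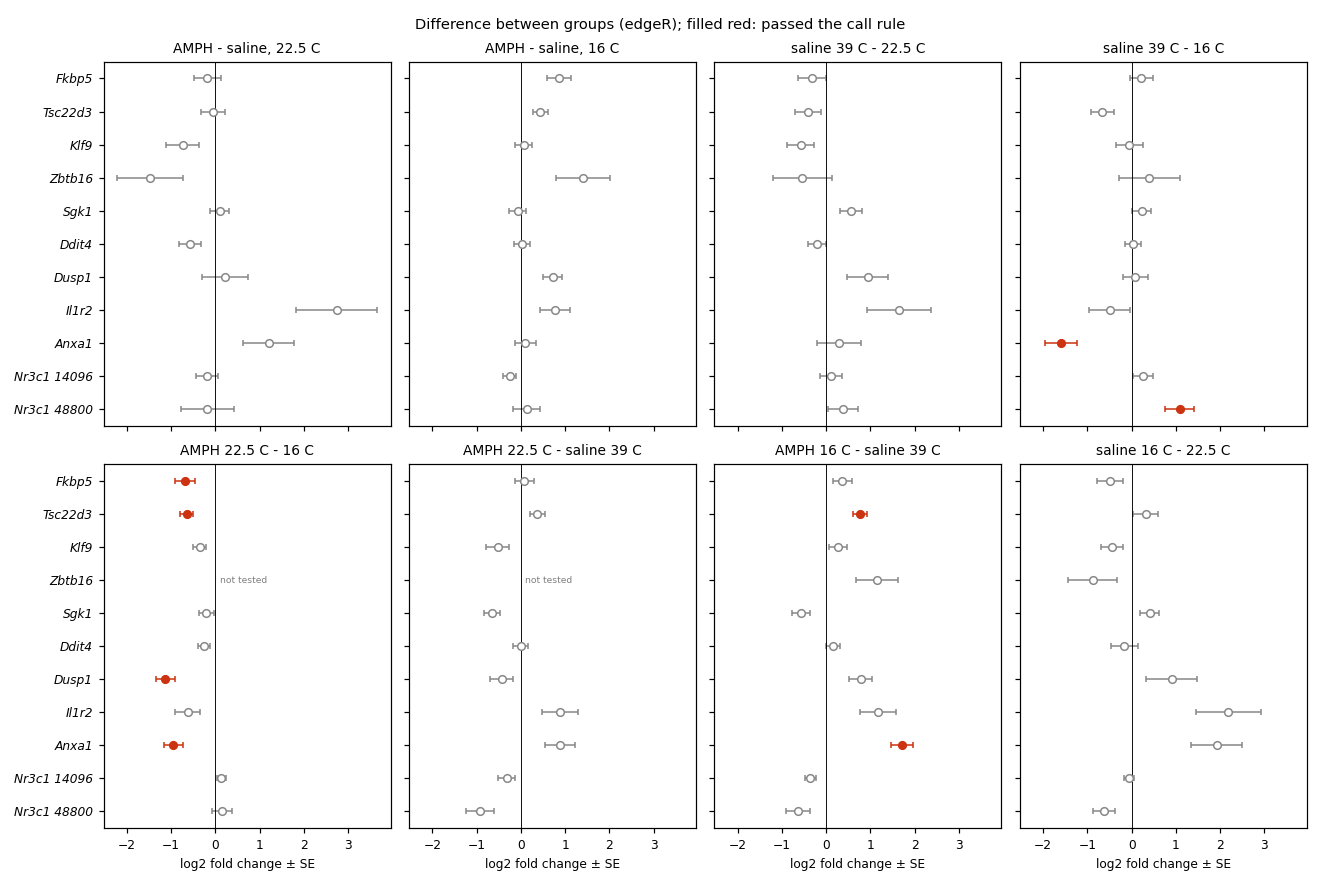
Log2 fold change ± SE (x axis) of each member (y axis) in 8 comparisons, from edgeR fits over all genes; filled red points passed the adjusted p and fold limits. Between the AMPH groups 4 members lie below 0 and pass, 2 pass between AMPH 16 C and EIH rats and 2 between EIH and saline 16 C rats.

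AMPH was compared with saline at each room temperature to ask for the effect of the drug. At 22.5 C, 8 AMPH rats with IDs of the controls' form were set against 4 saline rats, and 0 of 11 entries and 0% of 12853 genes passed. An unadjusted p under 0.05 was reached by 1337 genes, where a share of 0.05 of those tested would reach it with no difference. DESeq2 called 201 genes and 1 member. Il1r2, the interleukin-1 decoy receptor, had 24.6, 37.1, 162 and 393 CPM in the 4 controls and 35.0 to 1953.2 CPM in the AMPH rats (median 1164). Of the 8 AMPH rats, 7 lay above all 4 controls, and the exception was replicate 17. The log2 fold change was 2.74 ± 0.92 (adjusted p = 0.43), and 0.024 in DESeq2 and 0.032 with all 22 AMPH rats in edgeR. In the 2 project codes that held both groups the difference of mean log2(CPM + 1) was 2.94 and 2.74.

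Anxa1 (1.21 ± 0.58, adjusted p = 0.49), Zbtb16 (-1.48 ± 0.75, adjusted p = 0.49), Klf9 (-0.74 ± 0.38, adjusted p = 0.49) and Ddit4 (-0.57 ± 0.25, adjusted p = 0.46) had estimates beyond their SE. Fkbp5 was at 22.6 to 42.9 CPM in AMPH rats and 17.6, 25.7, 42.4 and 57.2 CPM in the controls, so the AMPH rats lay inside the control range, with a log2 fold change of -0.18 ± 0.31 (adjusted p = 0.8). Tsc22d3 stood at -0.06 ± 0.27 (adjusted p = 0.94), Dusp1 at 0.21 ± 0.52 (adjusted p = 0.87) and Sgk1 at 0.10 ± 0.21 (adjusted p = 0.84). The Nr3c1 entries stood at -0.19 ± 0.26 (adjusted p = 0.75) and -0.18 ± 0.59 (adjusted p = 0.9). Neutrophil marker sums were 1219 to 16195 CPM in the 4 controls and 1824 to 34518 CPM in the 8 AMPH rats. No gene of any list was called.

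At 16 C, 13 AMPH rats were set against 5 saline rats, and 0 of 11 entries passed, with 0.436% of 12396 genes called and 1927 at an unadjusted p under 0.05. Fkbp5 had 20.7, 23.2, 24.1, 27.4 and 30.4 CPM in saline rats and 20.3 to 83.3 CPM (median 43.0) in AMPH rats. Of the 13 AMPH rats, 10 lay above all 5 saline rats and 1 below them. The log2 fold change was 0.87 ± 0.27 (adjusted p = 0.13). Dusp1 had 325, 393, 518, 526.25 and 541 CPM in saline rats and 481 to 1289.1 CPM (median 695) in AMPH rats, of which 12 lay above all saline rats. Its log2 fold change was 0.72 ± 0.22 (adjusted p = 0.12). DESeq2 called 350 genes, among them Fkbp5 (adjusted p = 0.034) and Dusp1 (adjusted p = 0.027).

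Tsc22d3 (0.44 ± 0.16, adjusted p = 0.2), Il1r2 (0.77 ± 0.34, adjusted p = 0.28) and Zbtb16 (1.41 ± 0.61, adjusted p = 0.27) were also above 0 without passing, and Anxa1 (0.10 ± 0.24, adjusted p = 0.87), Klf9 (0.06 ± 0.19, adjusted p = 0.89), Ddit4 (0.03 ± 0.18, adjusted p = 0.96) and Sgk1 (-0.07 ± 0.20, adjusted p = 0.89) stood near 0. The Nr3c1 entries were at -0.26 ± 0.15 (adjusted p = 0.41) and 0.13 ± 0.31 (adjusted p = 0.86). In the project code that held the 5 saline rats, the 1 AMPH rat was higher by 1.08 for Fkbp5 and 1.11 for Dusp1 in log2(CPM + 1). Other glucocorticoid-induced genes called here were the cell cycle inhibitor gene Cdkn1a (1.85, adjusted p = 0.017) and Acsl1 (0.86, adjusted p = 0.027), both higher, of 20 tested. Tnf (-1.31, adjusted p = 0.019) was lower among 10 inflammatory genes and Fos (1.83, adjusted p = 0.0088) higher among 8 immediate early genes, and no receptor complex gene or cell marker was called. This fit had no project term, and in the 1 fit over all groups with a project term 0 genes were called, these 4 included, for AMPH against saline at 16 C.

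Whether the effect of AMPH differed between 22.5 C and 16 C was tested as an interaction in 1 fit of all 59 rats with the project as a term. No member passed, and 0% of 14000 genes did, with 1033 at an unadjusted p under 0.05 and 51 called by DESeq2. Fkbp5 had the smallest p of the members, with an effect of AMPH lower by 1.26 ± 0.47 on the log2 scale at 22.5 C than at 16 C (p = 0.0097, adjusted p = 0.52). Zbtb16 followed at -2.002 ± 1.14 (adjusted p = 0.71), and the median over the members was -0.61 against -0.03 over all genes. Klf9 (-0.78 ± 0.51, adjusted p = 0.75), Dusp1 (-0.62 ± 0.62, adjusted p = 0.84), Ddit4 (-0.61 ± 0.36, adjusted p = 0.72) and Tsc22d3 (-0.61 ± 0.35, adjusted p = 0.72) were below 0. Il1r2 (1.27 ± 1.00, adjusted p = 0.79), Anxa1 (0.66 ± 0.72, adjusted p = 0.85), Sgk1 (0.29 ± 0.38, adjusted p = 0.88) and the Nr3c1 entries (0.21 ± 0.29 and 0.08 ± 0.59, adjusted p = 0.88 and 0.99) were above 0. No list gene was called.

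Saline rats at 39 C were compared with both saline groups. Against saline 16 C (15 and 5 rats) 2 of 11 entries passed, 1 in each direction, and 8.02% of 12462 genes were higher and 5.51% lower. Anxa1 had 794, 1018.9, 1047.3, 1899 and 1941 CPM in the saline 16 C rats and 67.4 to 879 CPM (median 350) in EIH rats, so 14 of the 15 EIH rats lay below all 5. Its log2 fold change was -1.60 ± 0.36 (adjusted p = 0.0052). Nr3c1 ENSRNOG00000048800 was at 1.71, 2.86, 3.31, 3.82 and 4.06 CPM in saline 16 C and 3.08 to 16.8 CPM (median 5.60) in EIH rats, with a log2 fold change of 1.09 ± 0.33 (adjusted p = 0.03), while the other Nr3c1 entry stood at 0.25 ± 0.23 (adjusted p = 0.47). Tsc22d3 stood at -0.66 ± 0.26 (adjusted p = 0.083), Il1r2 at -0.50 (adjusted p = 0.47), Zbtb16 at 0.40 (adjusted p = 0.72), Fkbp5 at 0.21 (adjusted p = 0.59) and Sgk1 at 0.22 (adjusted p = 0.5), and Dusp1 at 0.08 (adjusted p = 0.86), Klf9 at -0.05 (adjusted p = 0.92) and Ddit4 at 0.02 (adjusted p = 0.94).

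All but 1 of the EIH rats came from other project codes than the saline 16 C rats, and in the 1 fit over all groups with a project term neither was called (Anxa1 -1.14, adjusted p = 0.21; Nr3c1 0.68, adjusted p = 0.39). The EIH rat of the shared code was lower in Anxa1 by 0.51 and higher in Nr3c1 ENSRNOG00000048800 by 0.33 in log2(CPM + 1). With rats of TMM factor under 0.7 left out Anxa1 was called (-1.55) and Nr3c1 was not (adjusted p = 0.055). Nr3c1 also lost its call without saline 16 C replicate 1, 2, 3 or 4 in turn (adjusted p from 0.051 to 0.087). Neutrophil markers summed to 13260.2 to 30215 CPM in saline 16 C and 2121 to 12000 CPM in EIH rats, which did not overlap, and S100a8 (-2.14, adjusted p = 0.00032), S100a9 (-1.62, adjusted p = 0.0024) and Camp (-1.58, adjusted p = 0.0091) fell among 11. Their part in the lower Anxa1 was not tested.

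The receptor complex list had 12 of 18 higher and none lower, led by Hsp90aa1 (5.66) and Stip1 (3.36, both adjusted p = 8.2e-05) and Hsp90ab1 (3.60, adjusted p = 0.00017). Other glucocorticoid-induced genes had 7 of 20 higher and 1 lower, with the clock gene Per1 (1.29, adjusted p = 0.0049), Cxcr4 (1.46, adjusted p = 0.0066) and Irs2 (1.14, adjusted p = 0.013) first. Inflammatory genes had 3 of 12 higher, among them Il1a (3.27, adjusted p = 0.024) and Nos2 (2.35, adjusted p = 0.026), and Tnf lower (-1.41, adjusted p = 0.013). Immediate early genes had 4 of 8 higher, with Fos (1.72, adjusted p = 0.0016), Egr1 (3.23, adjusted p = 0.0026) and Jun (2.78, adjusted p = 0.01) first. T-cell markers had 2 of 8 lower, Cd2 (-1.10) and Cd8a (-0.90), monocyte markers 2 of 7 higher, Itgax (0.77) and Cd14 (2.41), and platelet markers 2 of 5 higher, Ppbp (1.31) and Gp1ba (1.64). No B-cell, reticulocyte or cardiac marker was called.

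Against saline 22.5 C (15 and 4 rats) 0 of 11 entries passed although 15.7% of 12986 genes did (7.01% higher and 8.69% lower). DESeq2 called 3014 genes, and among the entries 2, Sgk1 (0.62) and Il1r2 (1.70). Sgk1 had 17.9, 20.4, 26.2 and 27.2 CPM in the controls and 16.2 to 59.7 CPM (median 32.2) in EIH rats, of which 10 lay above all controls. No member had groups without overlap, as 3.77% of the genes had. Sgk1 had a log2 fold change of 0.56 ± 0.24 (adjusted p = 0.11). Il1r2 (1.64 ± 0.71, adjusted p = 0.11) and Dusp1 (0.94 ± 0.47, adjusted p = 0.15) were above 0 and Klf9 (-0.57 ± 0.31, adjusted p = 0.18), Zbtb16 (-0.54 ± 0.67, adjusted p = 0.58), Tsc22d3 (-0.41 ± 0.30, adjusted p = 0.33) and Fkbp5 (-0.33 ± 0.32, adjusted p = 0.46) below 0. Anxa1 stood at 0.29 ± 0.50 (adjusted p = 0.7) here, against -1.60 with the 16 C rats as the reference. Ddit4 was at -0.21 ± 0.21 (adjusted p = 0.48) and the Nr3c1 entries at 0.11 ± 0.25 (adjusted p = 0.78) and 0.38 ± 0.34 (adjusted p = 0.42). The 2 groups shared no project code, so heat and project cannot be told apart in this comparison.

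Control replicate 19 decided several of these values. In the 4 saline 22.5 C rats, numbered 17, 18, 19 and 21, Dusp1 was at 52.5, 100.1, 584 and 257 CPM and Anxa1 at 115, 197, 868 and 234 CPM, so replicate 19 was highest in both. Without it, Dusp1 (1.78, adjusted p = 0.023) and Il1r2 (2.68, adjusted p = 0.035) passed in EIH against saline 22.5 C rats, among 1931 genes called. Without replicate 17, the genes called over the whole table fell from 2038 to 270. With all rats kept whatever their Mb counts, Sgk1 (0.73), Dusp1 (1.13) and Il1r2 (1.61) passed, but the genes called over the whole table also rose, to 3692.

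Among the lists, 11 of 18 receptor complex entries rose in EIH against saline 22.5 C, with Hsp90aa1 (6.38, adjusted p = 0.00096), Stip1 (3.25, adjusted p = 0.0015) and Fkbp4 (2.84, adjusted p = 0.0024) first, and 7 of 8 immediate early genes, with Jun (4.28, adjusted p = 0.0065), Fos (1.87, adjusted p = 0.012) and Egr1 (2.90, adjusted p = 0.015) first. Of 22 other glucocorticoid-induced genes 4 rose and 1 fell, with Sesn1 (-1.25, adjusted p = 0.009), Cdkn1a (2.25, adjusted p = 0.035) and Cxcr4 (1.12, adjusted p = 0.039) first. Of 13 inflammatory gene entries 3 rose, 2 entries of Nos2 (3.45 and 2.76) and Ptgs2 (2.97). All 8 T-cell markers fell, with Cd8a (-1.36), Cd2 (-1.57) and Cd3e (-1.68) first, and their summed level was 58.5 to 290 CPM in EIH and 310 to 455 CPM in saline 22.5 C rats. The B-cell marker Cd180 fell (-0.98), and the platelet markers rose in 4 of 5 (Ppbp, 3.05; Gp9, 1.56; Pf4, 1.40), Itgax (0.95) and Csf3r (1.35) rose among monocyte and neutrophil markers, and no reticulocyte or cardiac marker was called.

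The saline groups at 16 C and 22.5 C (5 and 4 rats) differed in 0 of 11 entries by the call rule, and in 0.00817% of 12238 genes, with 3195 at an unadjusted p under 0.05. Il1r2 had 380, 546, 748, 896 and 911 CPM at 16 C against the 24.6 to 393 CPM at 22.5 C, a log2 fold change of 2.18 ± 0.74 (adjusted p = 0.11). No member had groups without overlap, as 9.86% of the genes had. Anxa1 stood at 1.93 ± 0.57 (adjusted p = 0.094), Dusp1 at 0.90 ± 0.58 (adjusted p = 0.34), Fkbp5 at -0.49 ± 0.30 (adjusted p = 0.32) and Tsc22d3 at 0.31 ± 0.29 (adjusted p = 0.51). Sgk1 (0.40 ± 0.21, adjusted p = 0.24) was above 0 and Zbtb16 (-0.89 ± 0.56, adjusted p = 0.33), Nr3c1 ENSRNOG00000048800 (-0.63 ± 0.25, adjusted p = 0.15), Klf9 (-0.45 ± 0.25, adjusted p = 0.26), Ddit4 (-0.16 ± 0.31, adjusted p = 0.76) and Nr3c1 ENSRNOG00000014096 (-0.06 ± 0.12, adjusted p = 0.77) below 0. Without saline 22.5 C replicate 19, 1841 genes were called, among them Anxa1 (2.92, adjusted p = 0.0035), Il1r2 (3.26, adjusted p = 0.012) and Dusp1 (1.79, adjusted p = 0.029). The 11 neutrophil markers summed to 13260.2 to 30215 CPM (median 20981) at 16 C and 1219 to 16195 CPM (median 4529) at 22.5 C, with a median log2 fold change of 1.09 and none called with all 4 controls. Their part in the higher Anxa1 and Il1r2 was not tested. Each group lay in its own project codes, so room temperature and project cannot be told apart, and no list gene was called. The comparisons that share a group of rats are not independent of each other.

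Within groups, the level of Fkbp5 was set against the other 10 entries to ask whether rats high in it were high in the rest. Pearson's r and Spearman's rho of log2(CPM + 1) were computed in EIH, AMPH 22.5 C and AMPH 16 C rats, 30 relations in all, with permutation p-values. None passed after Benjamini-Hochberg adjustment (lowest 0.12 for r and 0.14 for rho), and 8 had an unadjusted permutation p under 0.05 by r and 7 by rho. Il1r2 was the member closest to Fkbp5 in AMPH 16 C rats (r = 0.71, permutation p = 0.008; rho = 0.75, permutation p = 0.0047; adjusted p = 0.12 and 0.14, n = 13). Without the 2 rats farthest from the Fkbp5 median r was 0.66, and centred by project over 10 rats 0.83 (adjusted permutation p = 0.085). The lowest adjusted p of the project-centred relations was for Sgk1 in the same group, with a negative r of -0.84 (adjusted permutation p = 0.0753, 10 rats), against -0.31 before centring (permutation p = 0.3, n = 13). For Il1r2, r was 0.42 in AMPH 22.5 C rats (permutation p = 0.042, adjusted p = 0.18, n = 22). It was 0.59 there without the 2 farthest rats and 0.45 centred by project over 16 rats (adjusted permutation p = 0.23). In EIH rats r of Il1r2 was 0.57 (permutation p = 0.027, adjusted p = 0.18, n = 15) and fell to 0.28 without the 2 farthest rats.

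Anxa1 in EIH rats had r = 0.64 (permutation p = 0.0079, adjusted p = 0.12; rho = 0.57, permutation p = 0.03), 0.30 without the 2 farthest rats, and 0.56 centred by project over 11 rats (permutation p = 0.068, adjusted p = 0.23). In AMPH 16 C rats Anxa1 had r = 0.59 (permutation p = 0.035, adjusted p = 0.18; rho = 0.60, permutation p = 0.034, n = 13), 0.48 without the 2 farthest rats and 0.49 centred by project, and in AMPH 22.5 C rats r = -0.08 (permutation p = 0.74, n = 22). Tsc22d3 had r = 0.52 in EIH (permutation p = 0.049, adjusted p = 0.18), which fell to 0.22 without the 2 farthest rats and to -0.09 after centring by project, and -0.02 in AMPH 22.5 C rats (permutation p = 0.93). In AMPH 16 C rats Tsc22d3 had r = 0.32 (permutation p = 0.29) and 0.66 centred by project (permutation p = 0.04, adjusted p = 0.17, 10 rats). Ddit4 had r = -0.55 in EIH rats (permutation p = 0.035, adjusted p = 0.18). Dusp1 had rho = 0.61 in AMPH 16 C rats (permutation p = 0.03, adjusted p = 0.17). Centred by project, Dusp1 had r = 0.68 there (adjusted permutation p = 0.17) but -0.69 in EIH rats (adjusted permutation p = 0.10). Nr3c1 ENSRNOG00000014096 had r = -0.42 in AMPH 22.5 C rats (permutation p = 0.046, adjusted p = 0.18), -0.35 without the 2 farthest rats and 0.04 centred by project (permutation p = 0.88, 16 rats). Nr3c1 ENSRNOG00000048800 had rho = -0.58 in EIH rats (permutation p = 0.026, adjusted p = 0.17). Its r there was -0.44 (permutation p = 0.0996), -0.25 without the 2 farthest rats and -0.18 centred by project (permutation p = 0.60). Over all 59 kept rats, with values centred by group and project, the genes most like Fkbp5 among 10647 genes with a mean of at least 1 CPM were Ifngr1 (r = 0.79), Arrdc1 (0.76), Slc39a1 (0.74), St3gal4 (0.72) and Ano10 (0.72). Il1r2 ranked 322 (r = 0.56), Anxa1 795 (0.47) and Tsc22d3 1983 (0.31) in that list, and Sgk1 had r = -0.16. These last values share library and blood composition and carry no test.

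**Figure D4:**
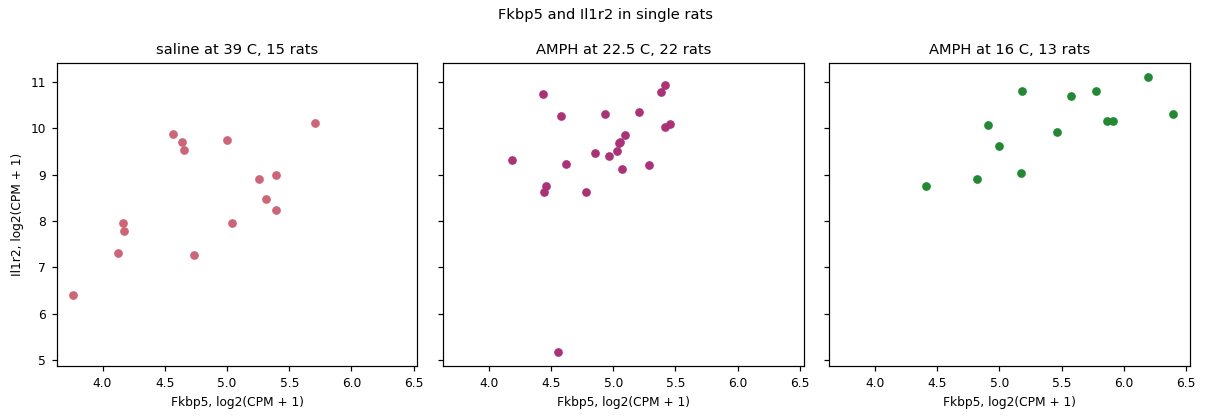
Fkbp5 (x axis) and Il1r2 (y axis), both as log2(CPM + 1), in single rats of the EIH, AMPH 22.5 C and AMPH 16 C groups, 1 point per rat. Points rise to the right most steadily in the 13 AMPH 16 C rats (r = 0.71), and 1 AMPH 22.5 C rat, replicate 17, lies far below the others in Il1r2.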

How the data were processed

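Whole blood RNA of 64 rats was sequenced by the authors as stranded paired-end libraries and deposited as 1 table of expected counts per rat, estimated with RSEM 1.2.0 and Bowtie 0.12.9 on a rat transcriptome (genome build rn5), with no further normalization. Here the expected counts were rounded to whole numbers and scaled by TMM. Genes listed in every file of a comparison with at least 10 counts in as many rats as its smaller group were tested by the edgeR 4.0.16 quasi-likelihood test in R 4.3.3, with Benjamini-Hochberg adjustment over all genes tested, and called at an adjusted p under 0.05 and an absolute log2 fold change over 0.58. Each comparison was fitted on its own groups. The project code, read from the file names and not described by the labels, was a term between AMPH groups and between AMPH and EIH rats. Rats with over 5000 Mb counts were left out. DESeq2 1.42.0, other filters, groupings and left-out rats were the alternatives. Leaving out rats with a TMM factor under 0.7 or AMPH 22.5 C replicate 21 was chosen after seeing the data. Where the project was a term, the TMM limit also dropped the rats of project codes left with only 1 group. Correlations used log2(CPM + 1) and 100000 permutations.

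The members and gene lists were chosen with earlier results of these data known. All members were named in each comparison, with the 3 called genes of smallest adjusted p from each other list and the 5 genes most like Fkbp5. The scripts were tested on simulated data. Totals of 19055615 to 40530319 counts per rat set the counting precision, and floors of 3 counts cover counting error only.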

Additional observations from a re-analysis of the deposited data

Results flagged for a closer look

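Of 22 gene and group pairs checked in the groups of 4 and 5 rats, 1 had a rat far from the others. Anxa1 in the saline 22.5 C rats was at 868 CPM in replicate 19, and its gap to the next rat was 0.843 of the range of the group. Chance alone marks about 1 in 20 groups by this criterion.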

How the results depend on the processing

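The members called by AMPH 22.5 C against AMPH 16 C rats numbered 4, and 2 in 1 fit over all groups with a project term, Dusp1 and Zbtb16. Dusp1 was called in 8 of 8 alternatives, Anxa1 and Tsc22d3 in 7 and Fkbp5 in 5. For AMPH 16 C against EIH rats 2 members were called, 4 by DESeq2, 6 with all rats and no project term, 5 without rats of TMM factor under 0.7 and 4 in the fit over all groups. For EIH against saline 16 C rats 2 were called, 1 without low TMM factors, 0 in the fit over all groups and 1 to 2 without single rats. Where 0 were called, DESeq2 called 1 (AMPH against saline at 22.5 C), 2 (at 16 C), 2 (EIH against saline 22.5 C), 1 (AMPH 22.5 C against EIH) and 2 (between saline groups). All 22 AMPH rats and the fit over all groups each gave 1 for AMPH at 22.5 C, all rats without a project term and the fit over all groups each 1 for AMPH 22.5 C against EIH, and no Mb criterion 3 for EIH against saline 22.5 C, where single rats left out gave 0 to 2; between saline groups they gave 0 to 3. The cause was not tested. Over the whole table DESeq2 called 3014 genes for EIH against saline 22.5 C and 1510 for AMPH 16 C against EIH rats. In the latter comparison 1265 were called without low TMM factors and 1401 in the fit over all groups.

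Genes called over the whole table moved from 0 to 201 by DESeq2, 780 with all AMPH rats and 349 in the fit over all groups (AMPH at 22.5 C), from 54 to 350 by DESeq2, 28 with no Mb criterion, 0 in the fit over all groups and 8 to 39 without single rats (AMPH at 16 C), from 2038 to 3692, 902, 400 and 270 to 1931 with no Mb criterion, without low TMM factors, in the fit over all groups and without single rats (EIH against saline 22.5 C), and from 1687 to 997 to 1161 without single rats (EIH against saline 16 C). They moved from 16 to 201 by DESeq2, 44 with no project term, 396 with all rats, 0 without low TMM factors and 223 in the fit over all groups (AMPH 22.5 C against EIH), from 1208 to 2370 with all rats (AMPH 16 C against EIH), from 1 to 1062 by DESeq2, 67 with no Mb criterion and 0 to 1841 without single rats (saline groups), and from 0 to 51 by DESeq2 and 20 with no project term (interaction).

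Of the member fold changes under alternatives, 894 kept direction and call, 32 gained and 14 lost the call, and 42 changed sign, none of them called. For AMPH at 22.5 C these were Tsc22d3 (0.035 with all AMPH rats) and, as ranges over single rats left out, Fkbp5 (-0.41 to 0.14), Tsc22d3 (-0.22 to 0.11), Sgk1 (-0.00265 to 0.20), Dusp1 (-0.12 to 1.07) and Nr3c1 ENSRNOG00000048800 (-0.30 to 0.0093). At 16 C they were Ddit4 (-0.022 with no Mb criterion), Nr3c1 ENSRNOG00000048800 (-0.12 in the fit over all groups) and, over single rats left out, Klf9 (-0.061 to 0.296), Sgk1 (-0.168 to 0.040), Ddit4 (-0.11 to 0.195), Anxa1 (-0.053 to 0.26) and Nr3c1 ENSRNOG00000048800 (-0.032 to 0.233). For EIH against saline 16 C they were Klf9 (0.15), Dusp1 (-0.21) and Ddit4 (-0.052) without low TMM factors, Klf9 (0.017), Zbtb16 (-0.58) and Ddit4 (-0.10) in the fit over all groups, and, over single rats left out, Klf9 (-0.162 to 0.19), Dusp1 (-0.0101 to 0.16) and Ddit4 (-0.091 to 0.202). For AMPH 22.5 C against EIH they were Fkbp5 (-0.10) and Ddit4 (0.043) without low TMM factors and Ddit4 with no filter (0.0028) and no Mb criterion (0.0014), and for AMPH 16 C against EIH Ddit4 with all rats (-0.00315). Between saline groups Tsc22d3 (-0.080) and Nr3c1 (0.10 and 0.075) changed sign in the fit over all groups, and Nr3c1 ENSRNOG00000048800 (-0.46) did in the interaction with no project term.

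Replicate numbers were not used to pair rats in the main fits, and in no comparison did every pair of same-numbered rats correlate above 0.1. For AMPH against saline at 22.5 C, the 4 same-numbered pairs had a mean r of 0.196 against -0.064 for other pairs. There 2 of the 4 rats correlated best with their own number, so pairing in that comparison was not settled. In the other comparisons, of 4 to 9 pairs, the mean same-number r ran from -0.06 to 0.015. In these, 0 to 2 rats correlated best with their own number. With the replicate number as a block, the members called were 1 for EIH against saline 16 C, 3 between AMPH groups (Fkbp5 at adjusted p = 0.16) and 1 for AMPH 16 C against EIH (Tsc22d3 at adjusted p = 0.083), and the genes called 123 (AMPH at 16 C), 948, 857, 3 (AMPH 22.5 C against EIH) and 292. Under the block Tsc22d3 (0.11, AMPH at 22.5 C), Nr3c1 ENSRNOG00000048800 (-0.18, AMPH at 16 C) and, for EIH against saline 16 C, Klf9 (0.074), Dusp1 (-0.29), Ddit4 (-0.14) and Nr3c1 ENSRNOG00000014096 (-0.072) changed sign.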
